A study of Rattus norvegicus with 4 samples.

Results

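The 73 genes described here are named for proteins of the mitochondrial ribosome and were followed through the response of neonatal rat ventricular cardiomyocytes to phenylephrine (PE), an agonist of α1-adrenergic receptors that is used in culture to induce hypertrophic growth. They were chosen by name: a protein-coding gene entered if its symbol in the authors' annotation began with Mrpl or Mrps followed by a digit and if its reads summed to at least 15 over all libraries. Of 32883 genes in the count table, 75 had such a name and 73 reached that sum. The 2 left out were Mrps21l, with 0 and 2 reads in PE libraries and 1 and 0 in control libraries, and Mrpl53, with 0 reads in every library. By the unified naming of mitochondrial ribosomal proteins, 26 members belong to the small subunit. The large subunit was given 46, among them Mrpl55, which was assigned no unified name here. The remaining one, Mrps36, carries a ribosomal name but is now known as a subunit of the 2-oxoglutarate dehydrogenase complex. The products of Mrps18a and Mrps30 sit in the large subunit in spite of their names and were counted there.

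The series holds 2 PE libraries (20 µM for 24 h) and 2 control libraries labelled as untreated, all of total RNA depleted of ribosomal RNA and sequenced with strand information. Both groups were ventricular cardiomyocytes of Sprague-Dawley rats at postnatal day 2, pre-plated so that faster-attaching cells could be discarded, then cultured in serum-containing medium. Groups follow the treatment label and title of each sample, because the shared protocol text mentions PE throughout, and no vehicle is named for the controls. Nothing in the labels tells whether the replicates come from different cultures, and p-values therefore reflect a sample-to-sample spread that may be purely technical. Library totals were 56948370 and 48075810 counts with PE, against 51917449 and 45637881 in controls. Markers of cardiomyocytes (10 genes) summed to 30103 and 31859 CPM (counts scaled to a common library size) with PE and to 25952 and 26382 CPM in controls. Of these 10 genes, 2 were higher and 0 lower with PE by that same test. Fibroblast markers summed to 10082 and 9994 CPM with PE, against 18165 and 16275 CPM in controls, with 2 of 7 tested genes lower. The test is the one used below, by which 7.39% of all genes were higher and 8.3% lower with PE. Of the markers of other cell types, 5 of 7 endothelial, 3 of 8 macrophage and 3 of 5 mesothelial genes were lower with PE, 1 of 6 smooth muscle and pericyte genes was higher, and no erythroid marker had enough reads to be tested. Endothelial markers summed to 132 and 136 CPM with PE, against 220 and 218 CPM in controls, and macrophage markers to 113 and 117 CPM with PE, against 173 and 195 CPM in controls. Mesothelial markers summed to 83.1 and 95.6 CPM with PE, against 193 and 158 CPM in controls, and smooth muscle and pericyte markers to 743 and 893 CPM with PE, against 760 and 571 CPM in controls. The part of these shifts in the values of the members was not tested. In bulk RNA, more or fewer cells of a type cannot be told apart from more or less marker RNA per cell. Any response of marker genes themselves to PE, Myh7 and Nppa of the cardiomyocyte list included, was not tested apart from cell numbers.

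Mitochondrial ribosomes translate the few messages of the mitochondrial genome, all of which encode subunits of the respiratory chain complexes and of ATP synthase. Their RNAs are made inside the organelle, whereas all of their proteins are encoded in the nucleus, translated in the cytosol and imported. Many of these proteins have bacterial counterparts, and others were added during the evolution of mitochondria. In humans, inherited defects of several of them cause cardiomyopathy.

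None of the 73 genes passed the test between PE and control cells. In edgeR's quasi-likelihood test with Benjamini-Hochberg adjustment over all genes tested, 0 of 73 were called at an adjusted p under 0.05, against 15.7% of all 15257 genes (7.39% higher and 8.3% lower with PE). The smallest adjusted p among members was 0.0599, for Mrps27. Before adjustment 8 members had a p under 0.05, 6 of them higher and 2 lower with PE, and 28.8% of all genes did. DESeq2 called 1 member higher (Mrps27) and 1 lower (Mrpl52), where its share over all genes was 8.22% higher and 8.77% lower. The authors' deposited table calls those same 2 members, with adjusted p-values of 0.0402 for Mrps27 and 0.0366 for Mrpl52.

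Fold changes of the members were small. Their median log2 fold change (PE over control) was 0.05, with quartiles of -0.15 and 0.22, where all genes tested had a median of -0.01 and quartiles of -0.33 and 0.28. A positive fold change was found in 39 members and a negative one in 34. The log2 fold change lay between -0.5 and 0.5 in 65 of 73. For 69 of 73 the 95% interval stayed within a 2-fold change in either direction, and 62.8% of all genes did. The exceptions were Mrpl36, Mrpl42, Mrpl52 and Mrpl1. Standard errors of the log2 fold change ran between 0.16 and 0.63 with a median of 0.19. In simulated counts with the spread of these libraries, the test recovered 6.15% of genes changed 1.5-fold and 55.4% of genes changed 2-fold. There, 67, 67 and 66 of 15034 genes were changed 1.5-, 2- and 4-fold, a far smaller part than the 15.7% called in the data. The adjustment was therefore stricter in the simulation, and its shares may understate what the test could recover among the members. A change of the size seen in most members could still be missed.

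**Figure D1:**
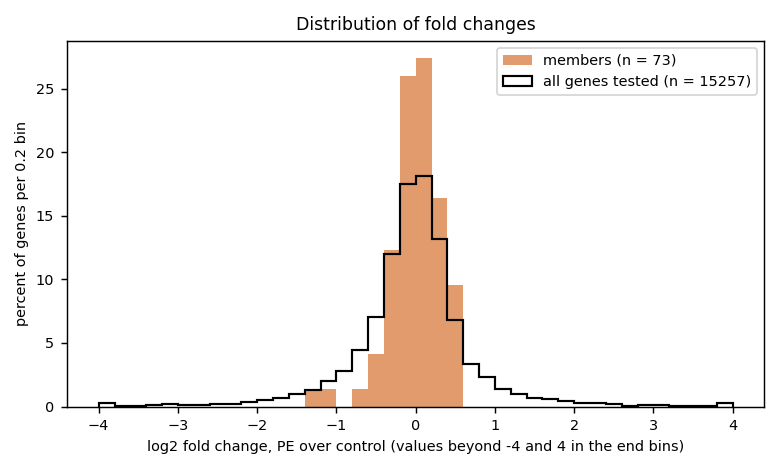
Percent of genes per bin of log2 fold change (PE over control) for the 73 members (filled) and for all 15257 genes tested (outline). The members sit closer to 0, with a median of 0.05 and all values between -1.36 and 0.55.

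The summed level of the members did not separate the groups. All 73 together made 2119 and 1977 CPM in PE libraries, against 1918 and 2049 CPM in control libraries, which is between 0.194% and 0.209% of all counts. The control libraries lay on either side of the lower PE library, so the groups overlapped. CPM are not corrected for gene length here, so they are compared between libraries and not between genes. Members of the large subunit summed to 1312 and 1243 CPM with PE, against 1223 and 1255 CPM in controls, and members of the small subunit to 778 and 711 CPM with PE, against 679 and 774 CPM in controls. In both subunits, too, the ranges of the groups overlapped.

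Medians lay near 0 in both subunits and in both classes of origin. The median log2 fold change was 0.04 over the 46 large-subunit members (24 positive, 22 negative) and 0.05 over the 26 small-subunit members (14 positive, 12 negative). The 95% interval stayed within 2-fold in all 26 small-subunit members and in 42 of the 46 of the large subunit, which held all 4 exceptions. The 41 members with bacterial homologs had a median of 0.05 and the 28 mitochondria-specific members one of -0.03. Mrps18a and Mrps18b, classed as S18 paralogs, and Mrps36 and Mrpl55, of unassigned origin, were in neither class. No test was made between these classes.

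**Figure D2:**
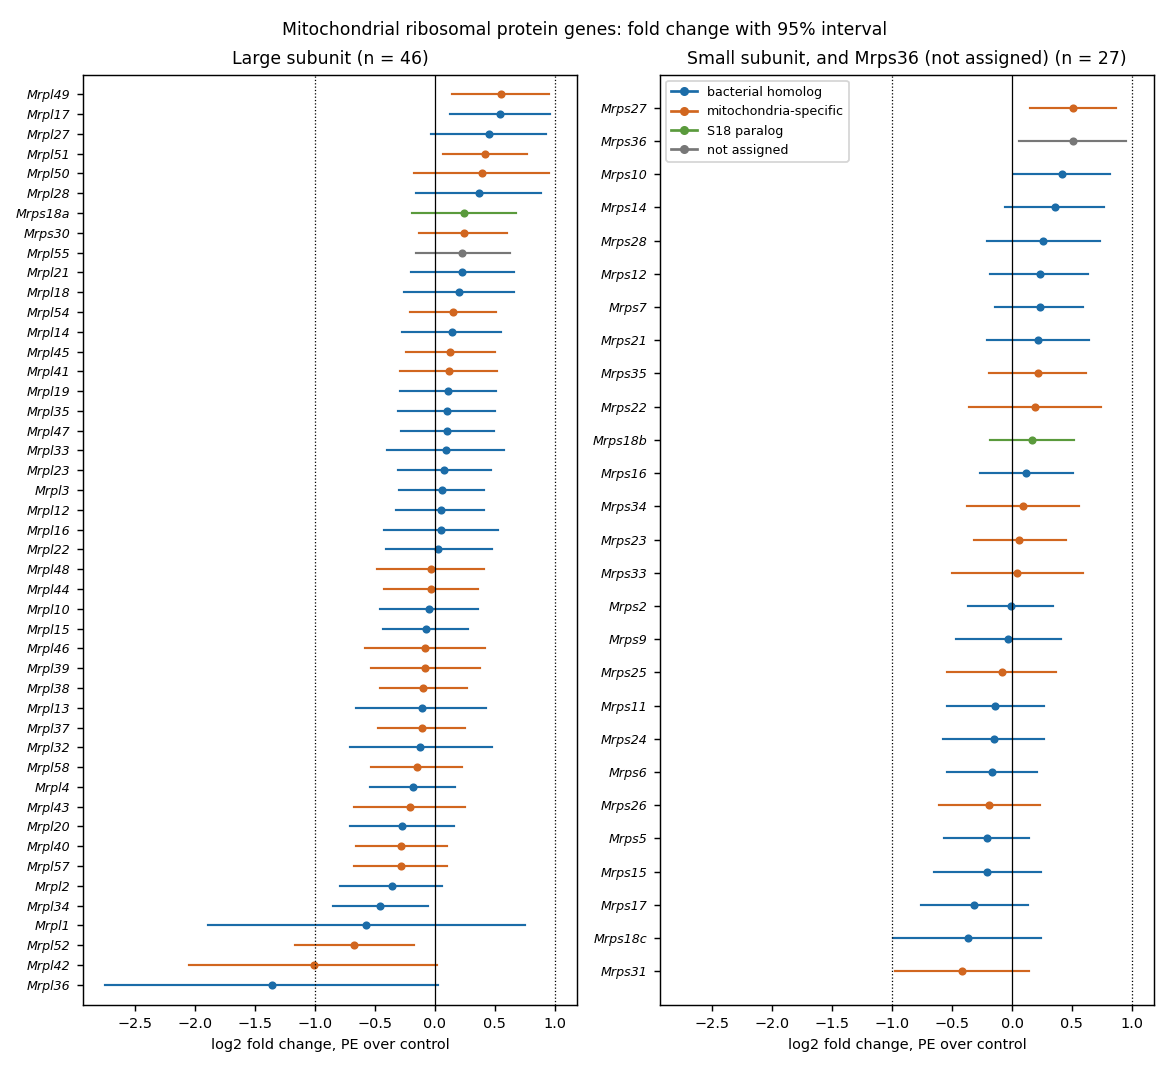
Log2 fold change (PE over control, points) with its 95% interval (bars) for the 46 large-subunit members on the left and for the 26 small-subunit members with Mrps36 on the right, coloured by origin. Dotted lines mark a 2-fold change. Intervals of 4 members, Mrpl36, Mrpl42, Mrpl52 and Mrpl1, cross a dotted line.

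The highest fold changes in the large subunit belonged to Mrpl49 and Mrpl17. Mrpl49, a mitochondria-specific protein, had 20.8 and 17.9 CPM in PE libraries, against 13.1 and 13.4 CPM in control libraries. Both PE libraries lay above both controls, and the log2 fold change was 0.55 ± 0.18 (SE; edgeR adjusted p = 0.0696). Mrpl17, counterpart of bacterial L17, had 81.2 and 81.1 CPM with PE, against 64.6 and 47.0 CPM in controls. The PE libraries were nearly equal and higher, while the controls differed between themselves, and the log2 fold change was 0.54 ± 0.19 (edgeR adjusted p = 0.0808). Mrpl27, counterpart of the bacterial protein whose tail reaches towards the peptidyl transferase centre, had 29.5 and 23.7 CPM with PE, against 22.9 and 15.9 CPM in controls. The lower PE library barely exceeded the higher control there, with a log2 fold change of 0.45 ± 0.22 (edgeR adjusted p = 0.198).

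In the small subunit Mrps27 led. This protein of the pentatricopeptide repeat family, known in human cells to bind mitochondrial RNA, had 52.7 and 49.5 CPM in PE libraries, against 37.5 and 34.3 CPM in control libraries. Both PE libraries were higher, by more than either pair of replicates differed, and the log2 fold change was 0.51 ± 0.16 with a 95% interval of 0.15 to 0.87. Without control replicate 1 or 2 it passed the edgeR test (log2 fold change 0.58 and 0.45, adjusted p = 0.00243 and 0.0238). Without PE replicate 1 or 2 the log2 fold change was 0.47 and 0.56 and did not pass (edgeR adjusted p = 0.591 and 0.427). Mrps36, the dehydrogenase subunit with a ribosomal name, had 29.5 and 23.3 CPM with PE, against 16.4 and 20.8 CPM in controls. Its groups did not overlap, and the log2 fold change was 0.51 ± 0.20 (edgeR adjusted p = 0.122).

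At the low end stood 5 large-subunit members. Mrpl52, a mitochondria-specific protein, had 24.4 and 21.5 CPM in PE libraries, against 28.3 and 44.8 CPM in control libraries. The PE libraries were lower than both controls, but the controls differed between themselves by 0.66 on the log2 scale, and the log2 fold change was -0.67 ± 0.22 (edgeR adjusted p = 0.0714). Without control replicate 2 the log2 fold change of Mrpl52 was -0.30, and without control replicate 1 it was -0.96. Mrpl34, counterpart of bacterial L34, had 25.2 and 25.1 CPM with PE, against 38.4 and 30.5 CPM in controls. Its PE libraries were nearly equal and below both controls, with a log2 fold change of -0.46 ± 0.18 (edgeR adjusted p = 0.12).

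Mrpl42 showed how far 1 control library could carry a value. It had 8.05 and 7.73 CPM in PE libraries, against 6.52 and 25.4 CPM in control libraries. PE cells thus lay between the controls, and the log2 fold change of -1.01 ± 0.47 (edgeR adjusted p = 0.184) became 0.28 without control replicate 2. Mrpl36 and Mrpl1 were barely detected. Mrpl36, counterpart of bacterial L36, had 35 and 5 reads with PE, against 45 and 50 reads in controls, with a log2 fold change of -1.36 ± 0.63 (edgeR adjusted p = 0.184). Its lower PE library alone carried most of that value, which was -3.15 without PE replicate 1 and -0.62 without PE replicate 2. Mrpl1, counterpart of the L1 stalk protein, had 0.285 and 0.191 CPM with PE, against 0.242 and 0.483 CPM in controls, and at this depth a difference was not detectable (log2 fold change -0.57 ± 0.59).

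**Figure D3:**
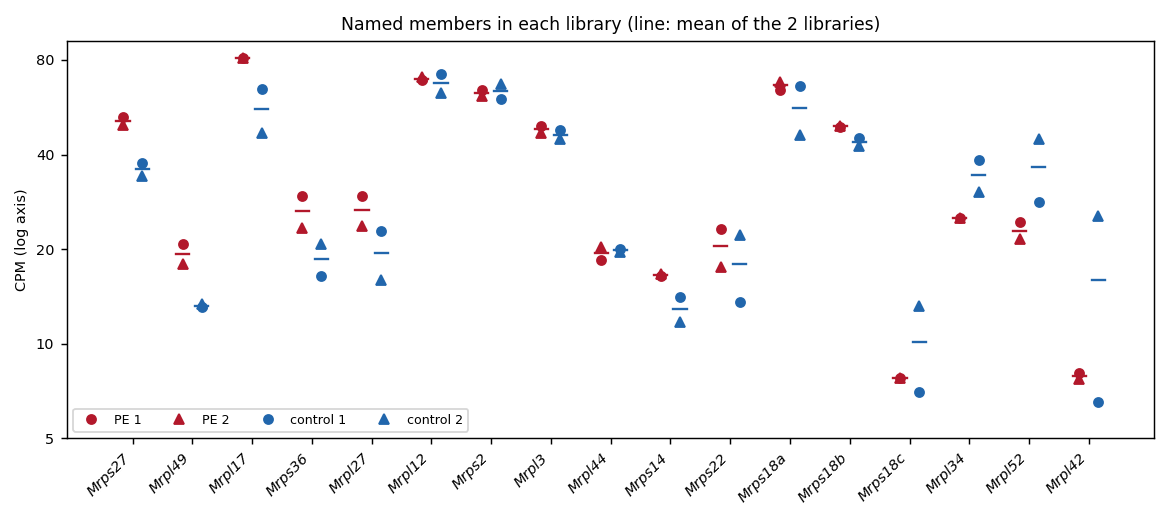
CPM (log axis) of 17 members in each library, PE in red and control in blue, with circles for replicate 1, triangles for replicate 2 and a line at each mean. Mrps27, Mrpl49 and Mrpl17 lie higher in both PE libraries, and Mrpl42 is far higher in control replicate 2 than in the other 3 libraries.

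Members fixed by role did not pass the test. Mrpl12, the counterpart of bacterial L7/L12 in the stalk that recruits translation factors, had 68.9 and 70.6 CPM in PE libraries, against 72.4 and 62.8 CPM in control libraries. The PE libraries lay between the controls, with a log2 fold change of 0.05 and a 95% interval of -0.32 to 0.41. Mrps12, the counterpart of bacterial S12 at the decoding centre, had 16.6 and 15 CPM with PE, against 13.2 and 13.9 CPM in controls. Both PE libraries were higher, by a log2 fold change of 0.23 that did not pass the test (edgeR adjusted p = 0.465). Mrpl58, a peptidyl-tRNA hydrolase with the fold of a release factor that rescues stalled ribosomes, had 21.4 and 19.9 CPM with PE, against 23.0 and 22.8 CPM in controls. Both PE libraries were slightly lower, with a log2 fold change of -0.15 (edgeR adjusted p = 0.611).

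The 4 members whose human counterparts are known cardiomyopathy genes did not pass the test either. Mrpl3, counterpart of the bacterial L3 that reaches towards the peptidyl transferase centre, had 49.4 and 46.8 CPM in PE libraries, against 47.8 and 44.7 CPM in control libraries. Mrpl44, a mitochondria-specific protein with a fold of the ribonuclease III family, had 18.5 and 20.3 CPM with PE, against 20.0 and 19.6 CPM in controls. The groups overlapped for both genes, and the log2 fold changes were 0.06 (interval -0.30 to 0.41) and -0.03 (interval -0.42 to 0.36). Mrps14, counterpart of bacterial S14, had 16.4 and 16.7 CPM with PE, against 14.1 and 11.7 CPM in controls, so that PE libraries were higher, by a log2 fold change of 0.36 (edgeR adjusted p = 0.243). Mrps22, a mitochondria-specific protein, had 23.2 and 17.5 CPM with PE, against 13.6 and 22.2 CPM in controls. Its control libraries differed more than the groups, and the log2 fold change of 0.19 (edgeR adjusted p = 0.672) became 0.59 without control replicate 2 and -0.11 without control replicate 1.

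The 3 Mrps18 genes are paralogs of bacterial S18 that occupy different places. Mrps18a, in the large subunit, had 64.4 and 68.3 CPM in PE libraries, against 66.1 and 46.0 CPM in control libraries, and the groups overlapped (log2 fold change 0.24 ± 0.20). Mrps18b, in the small subunit, had 49.0 and 49.4 CPM with PE, against 45 and 42.6 CPM in controls, with both PE libraries higher (0.17 ± 0.16). Mrps18c, which takes the place of S18 itself, had 7.79 and 7.80 CPM with PE, against 7.02 and 13.2 CPM in controls. Its log2 fold change was -0.37 ± 0.28, and control replicate 2 stood apart from the other 3 libraries. The edgeR adjusted p-values were 0.467, 0.544 and 0.424 in that order.

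The 3 members with the highest mean CPM in each subunit did not pass the test. In the large subunit these were Mrpl17, Mrpl12 and Mrpl37, a mitochondria-specific protein with 57.5 and 62.2 CPM in PE libraries, against 62.4 and 66.7 CPM in control libraries (log2 fold change -0.11). In the small subunit Mrps2, counterpart of bacterial S2, had 64.4 and 61.3 CPM with PE, against 59.9 and 67.1 CPM in controls (-0.01). Mrps17, counterpart of bacterial S17, had 59.8 and 51.5 CPM with PE, against 56.9 and 81.9 CPM in controls (-0.32), and Mrps21, counterpart of bacterial S21, had 58.7 and 52.2 CPM with PE, against 40.2 and 55.3 CPM in controls (0.22). In each of these 3 small-subunit genes the groups overlapped.

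Over the whole set, the 2 control libraries differed more than the group means did. The absolute log2 difference between the 2 libraries of a member had a median of 0.13 in PE cells and 0.27 in controls, where that between the group means was 0.18. Controls differed from each other by more than the groups in 42 of 73 members, and PE libraries did in 32. In 23 members the groups were further apart than either pair of replicates. Single libraries vary more than means of 2, so some or all of this excess can arise without any effect. These counts were not made over all genes. The highest of the 4 values lay in PE replicate 1 for 27 members, in PE replicate 2 for 8, in control replicate 1 for 11 and in control replicate 2 for 27. Both PE libraries exceeded both controls in 17 members, where 28.5% of all genes did, and lay below both in 14, where 28.1% did; in the other 42 the groups overlapped.

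**Figure D4:**
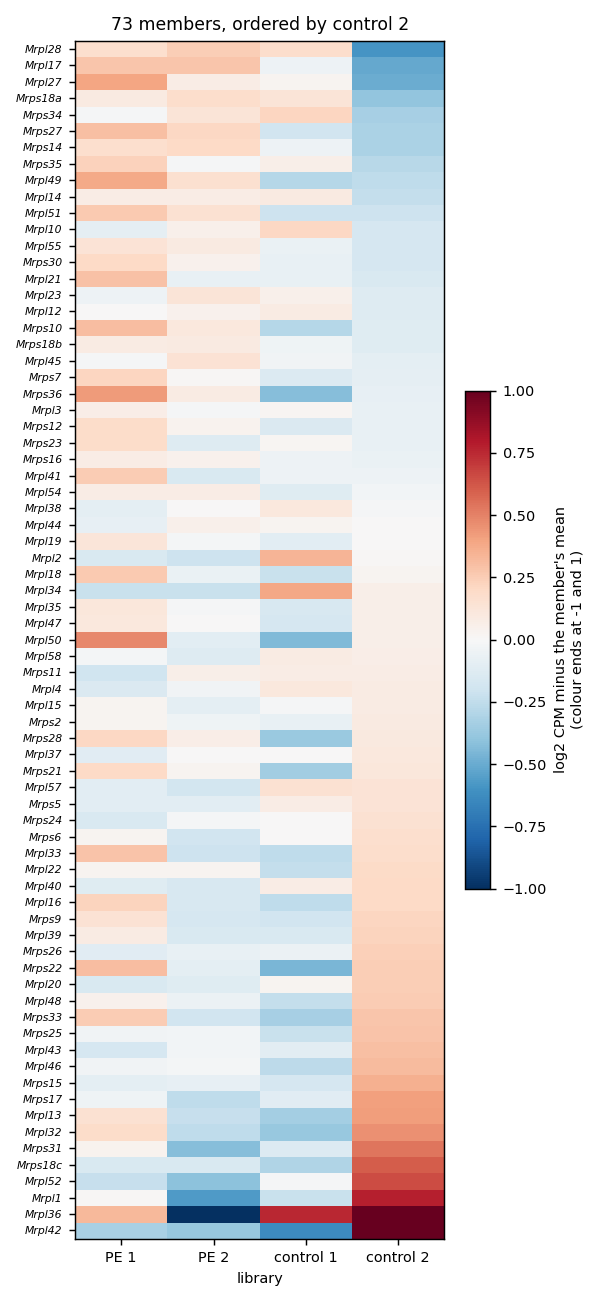
Log2 CPM of each of the 73 members minus its mean over the 4 libraries, in colour, with members in rows ordered by control replicate 2 and libraries in columns. Control replicate 2 holds the highest or the lowest value in 47 members (27 and 20), among them Mrpl42 and Mrpl28 at the ends of the order. The highest and the lowest value lie in PE replicate 1 for 27 and 9 members, in PE replicate 2 for 8 and 16, and in control replicate 1 for 11 and 28.

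Control replicate 2 also differed in the mitochondrial genome, whose 37 genes took 11.7% of its counts, against 6.19% in the other control, with 4.61% and 4.76% in PE libraries. The calls depended on which control was kept. Without control replicate 1, edgeR called 8 members higher and 9 lower, where 30.1% of all genes were called, and without control replicate 2 it called 9 higher and 2 lower, again beside 30.1% of all genes. These fits draw their spread from the PE pair alone. Only Mrpl49, Mrpl51 and Mrps27 were called in both, each higher with PE. Mrpl51, a mitochondria-specific protein singled out here after its values were seen, had 66.8 and 61.9 CPM with PE, against 48.2 and 48.1 CPM in controls (log2 fold change 0.42 ± 0.16, edgeR adjusted p = 0.108 over all 4 libraries). Without PE replicate 1 the count was 0 higher and 1 lower (Mrpl36) beside 7.64% of all genes, and without PE replicate 2 it was 0 of 73 beside 7.98%.

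Promoter sequence was read for the members because their names did not fix it. RefSeq windows of assembly GRCr8, which run over 250 bases before and 50 bases after a gene's start, matched 58 of the 73 members by symbol. Windows were searched on both strands for 10 motifs, without regard to overlap between motifs. The letters AAGATGGC, of the YY1 type, occurred in 15 of 58 members (25.9%), in 5.26% of the 10357 windows of tested genes and in 3.44% of all 27457 windows. CCGGAAG, of the ETS family to which the GABP factor belongs, occurred in 19 members (32.8%), in 16.7% of tested genes and in 9.22% of all windows. GCGCANGCG, of the NRF1 type, occurred in 10 members (17.2%), in 12.5% of tested genes and in 6.26% of all windows. These 3 factors are known as regulators of nuclear genes for mitochondria, but a match is a description and not a site or a cause. Of the 58 members, 25 held 1 of the 3 motifs, 8 held 2 and Mrps18b held all 3, while 24 held none.

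The remaining 7 motifs gave shares above and below those of tested genes. CCAAT occurred in 26 members (44.8%) and in 37.4% of tested genes, TATAAA in 7 (12.1%) and in 7.03%, and CACGTG, the E-box, in 5 (8.62%) and in 9.1%. GGGGCGGGG, of the SP/KLF type, occurred in 7 members (12.1%) and in 20.0% of tested genes, and TGACGTCA, of the CREB type, in 1 (1.72%) and in 3.01%. No window of a member held TCAAGGTCA, of the ERR type, or TCACCCCAC, of the SREBP type, which 0.241% and 0.434% of tested genes held. Members with AAGATGGC had a median log2 fold change of 0.17 and those without it -0.01, and the medians with and without were -0.03 and 0.03 for CCGGAAG, 0.00 and 0.01 for GCGCANGCG, -0.11 and 0.06 for CCAAT, -0.18 and 0.03 for CACGTG, -0.03 and 0.03 for TATAAA, and -0.11 and 0.04 for GGGGCGGGG. No test was made of these medians.

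The YY1-type letters often stood just after the start. On the gene's own strand, with the first of the 8 letters between the start base (position 0) and position 30, they were found in 11 of 58 members (19%) and in 227 of 10357 tested genes (2.19%). Position 30 is also that of the farthest such match in a member (Mrps10). The range thus fits the members and may widen the gap between these shares. Most member windows lacked this feature. The 11 stretches are shown with 11 bases on either side of the capital letters (RefSeq, GRCr8), 5′ to 3′ on the gene's strand:
Mrpl37, chr5:127074943-127074972, minus strand: ctgcccgggcaAAGATGGCggcgtccaggt
Mrpl42, chr7:32028485-32028514, minus strand: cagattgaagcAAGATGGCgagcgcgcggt
Mrpl46, chr1:142116988-142117017, minus strand: gggaagacggaAAGATGGCggcgcccatag
Mrpl49, chr1:212779293-212779322, minus strand: ttggaggagcaAAGATGGCagcaaatgtat
Mrpl50, chr5:68668043-68668072, minus strand: ggagcttgtcgAAGATGGCggcgctgtgtg
Mrps10, chr9:21122405-21122434, minus strand: gtcagggcaccAAGATGGCggcgcgcgcag
Mrps18a, chr9:22367362-22367391, minus strand: ggtgtgttcccAAGATGGCggccctcaggg
Mrps18b, chr20:2843023-2843052, plus strand: ggatgtgcgacAAGATGGCtgcctccttgc
Mrps27, chr2:32474222-32474251, plus strand: tggtacgctccAAGATGGCggcccccatgg
Mrps30, chr2:52195868-52195897, minus strand: cgcggaggacaAAGATGGCggctgccaggt
Mrps7, chr10:101342637-101342666, plus strand: tgatagcggccAAGATGGCtgcccccgcac
Mrps27 and Mrpl49, which stood among the highest fold changes, are among these 11, and so is Mrpl42, which had one of the lowest. The letters hold an ATG, and whether it is an initiation codon was not examined.

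The 250 bases before the start are shown for Mrps27 and Mrpl52, the 2 members that DESeq2 called, for Mrpl17, which had the most NRF1-type matches among the named members, and for Mrps18b, which held all 3 motifs. Capitals mark matches to the NRF1, ETS and YY1 letters on either strand, with overlapping matches run together:
Mrps27, chr2:32473954-32474203, plus strand: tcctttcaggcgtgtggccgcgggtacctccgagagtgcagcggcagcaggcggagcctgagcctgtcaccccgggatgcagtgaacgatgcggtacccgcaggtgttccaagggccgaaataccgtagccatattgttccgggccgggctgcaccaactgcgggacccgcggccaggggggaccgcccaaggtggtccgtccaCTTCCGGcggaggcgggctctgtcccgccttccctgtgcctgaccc
Mrpl52, chr15:31852686-31852935, plus strand: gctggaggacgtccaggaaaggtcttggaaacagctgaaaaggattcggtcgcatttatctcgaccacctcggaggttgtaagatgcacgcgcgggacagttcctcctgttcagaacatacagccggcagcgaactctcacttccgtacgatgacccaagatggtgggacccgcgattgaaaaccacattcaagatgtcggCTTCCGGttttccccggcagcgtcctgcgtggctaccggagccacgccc
Mrpl17, chr1:169575700-169575949, minus strand: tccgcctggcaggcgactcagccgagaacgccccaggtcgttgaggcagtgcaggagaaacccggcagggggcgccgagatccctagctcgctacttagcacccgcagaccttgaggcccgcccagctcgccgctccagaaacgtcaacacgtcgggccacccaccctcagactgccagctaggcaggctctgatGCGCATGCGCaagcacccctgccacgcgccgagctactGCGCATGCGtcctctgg
Mrps18b, chr20:2842756-2843005, plus strand: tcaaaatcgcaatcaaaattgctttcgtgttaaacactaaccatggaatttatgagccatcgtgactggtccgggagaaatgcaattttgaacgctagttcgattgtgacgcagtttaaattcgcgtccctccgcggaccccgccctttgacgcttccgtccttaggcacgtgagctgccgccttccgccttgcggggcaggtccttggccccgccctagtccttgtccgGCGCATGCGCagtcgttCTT
The ETS-type letters stood both in Mrps27, called higher with PE, and in Mrpl52, called lower, on the other strand as CTTCCGG. Mrpl17 held NRF1-type letters at 2 places close to its start. The last 3 capitals of Mrps18b open an ETS-type match that runs past the start.

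Neighbouring genes were read by name from the same annotation. A gene in head-to-head orientation starts within 1000 bases of 17 of the 58 members with a window, and Mrpl46 and Mrps11 are such a pair with each other (log2 fold changes -0.08 and -0.14). Of the 15 partners that were tested, 1 was called, where 15.7% of all genes were. It was Pnpla7 beside Mrpl41, with a log2 fold change of -0.61 (edgeR adjusted p = 0.0424), while Mrpl41 itself had 0.12. Ptcd2, head to head with Mrps27, had -0.08. The span of another protein-coding gene overlaps that of 16 of the 72 members found in the annotation, among them Mrpl36 with Ndufs6, Mrpl49 with Syvn1 and Mrpl27 with Eme1. The strand setting of the counting is not given in the sources used here, so reads of such pairs may have been shared and their values are uncertain.

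Other nuclear genes of mitochondrial translation gave the same count as the members. Of 6 further mitoribosome proteins tested, 26 genes of ribosome assembly and rRNA modification, 14 translation factors, 21 genes of mitochondrial aminoacyl-tRNA synthesis and 14 of mitochondrial DNA maintenance and transcription, edgeR called 0 in each list, beside 15.7% of all genes. Before adjustment 2, 2, 1, 2 and 1 of them had a p under 0.05. DESeq2 called 0 in the first 4 lists and 1 in the last, Polrmt, the mitochondrial RNA polymerase, with 11.5 and 14.0 CPM in PE libraries, against 26.2 and 17.0 CPM in control libraries (log2 fold change -0.76, edgeR adjusted p = 0.0505). Dap3, a GTP-binding protein of the small subunit chosen after its values were seen, had 44.5 and 46.7 CPM in PE libraries, against 33.6 and 32.9 CPM in control libraries. Its log2 fold change was 0.46 ± 0.16 (edgeR adjusted p = 0.0829), next to those of Mrps27 and Mrpl49. Oxa1l, the inner-membrane insertase at which mitochondrial ribosomes dock, had 74.6 and 82.9 CPM with PE, against 101 CPM in each control (log2 fold change -0.36, edgeR adjusted p = 0.163).

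The genes with the highest mean CPM in those lists did not pass the test either. The log2 fold change was 0.10 for Aurkaip1, a small-subunit protein, 0.20 for Lrpprc, which stabilizes mitochondrial messages, and 0.32 for Gfm1, an elongation factor. It was -0.14 for Dhx30, an RNA helicase of ribosome assembly, 0.50 for Trmt10c, a tRNA methyltransferase subunit, and 0.11 for Polg and -0.19 for Twnk, the mitochondrial DNA polymerase and helicase. Gars, the glycyl-tRNA synthetase shared with the cytosol, had 0.00 and Iars2 had -0.04. The symbols mrpl9, mrpl11 and mrpl24 are written in lower case in the annotation and so fell outside the naming rule. Their log2 fold changes were 0.08, -0.13 and 0.15, and none was called. Of the listed genes, Ict1 and Mrp63 stand among the members as Mrpl58 and Mrpl57, Nsun4 and Mars2 had too few reads to be tested, and Trmt61b and Mtrfr were not analysed here.

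**Figure D5:**
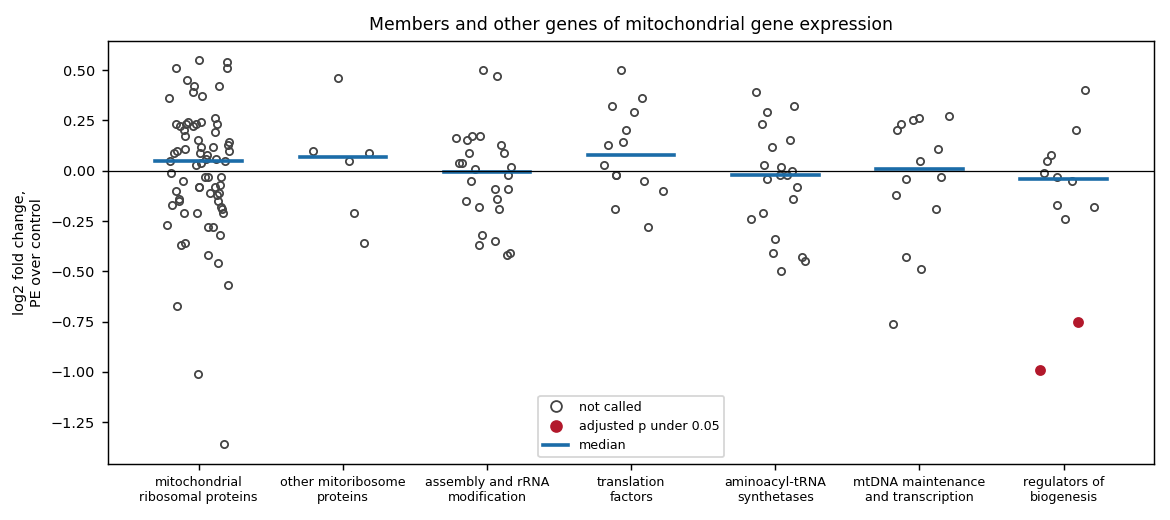
Log2 fold change (PE over control) of each tested gene, with the median as a line, for the 73 members on the left and 6 lists of related genes, where filled points have an adjusted p under 0.05. The 2 filled points are Ppargc1a and Ppargc1b, both lower with PE.

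Among 12 regulators of mitochondrial biogenesis 2 fell, where 8.3% of all genes were called lower; both are transcriptional coactivators of the PGC-1 family. Pprc1, of the same family, had a log2 fold change of -0.01 (edgeR adjusted p = 0.972). Ppargc1a (PGC-1α) had 32.1 and 37.1 CPM in PE libraries, against 62.2 and 74.9 CPM in control libraries. The groups were well apart, and the log2 fold change was -0.99 ± 0.18 (edgeR adjusted p = 0.00382). Without PE replicate 1 it was -0.88 and did not pass (edgeR adjusted p = 0.13). Ppargc1b (PGC-1β) had 133 and 170 CPM with PE, against 256 and 253 CPM in controls. Its log2 fold change was -0.75 ± 0.17 (edgeR adjusted p = 0.0149), and without PE replicate 1 or 2 it was -0.58 and -0.93 and did not pass (edgeR adjusted p = 0.468 and 0.099). Whether their levels bear on the members was not tested.

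The messages that mitochondrial ribosomes translate were read from the same libraries. The 13 protein genes of the mitochondrial genome summed to 45574 and 47020 CPM in PE libraries, against 58462 and 112384 CPM in control libraries, with a median log2 fold change of -1.35. Control replicate 2 stood far above the other 3 libraries. Both PE libraries lay below both controls in all 13 genes, where 28.1% of all genes did. Before adjustment 12 of the 13 had an edgeR p under 0.05, where 28.8% of all genes did. The 13 genes lie on the same genome, whose share of counts differed between libraries, so they are not 13 separate observations. In edgeR 4 of 13 were called lower (Mt-nd3, Mt-nd5, Mt-co3 and Mt-atp6), where 8.3% of all genes were, and DESeq2 called 2 others lower (Mt-co1 and Mt-atp8). With upper-quartile factors only Mt-nd5 of the 4 passed, and the edgeR adjusted p-values of Mt-nd3, Mt-co3 and Mt-atp6 were 0.0538, 0.0585 and 0.0591. Without control replicate 2 the log2 fold changes of those 4 were -0.31, -0.51, -0.28 and -0.30, and of these only Mt-nd5 was still called. The 2 mitochondrial rRNA genes summed to 1112 and 1373 CPM with PE, against 1300 and 4706 CPM in controls; these libraries were depleted of ribosomal RNA, so the sums are no measure of ribosome number.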

How the data were processed

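Raw counts per gene for 2 PE and 2 control libraries were deposited by the authors. Cutadapt 2.0, STAR 2.4.2a, featureCounts 1.6.4 and the build Rnor_6.0 are named, per the submitters' processing notes; the sources used here give neither annotation release nor strand setting. The authors' deposited table adds gene symbols, a log2 fold change and p-values from a DESeq2 comparison, per the file headers; all 20666 of its log2 fold changes equal those computed here within 0.001.

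Counts were analysed in R 4.3.3 with edgeR 4.0.16 (filterByExpr at its defaults, minimum count 10 and total 15, TMM factors between 0.982 and 1.03, quasi-likelihood F test, group as the only term). The Benjamini-Hochberg adjustment ran over all 15257 genes tested, with a threshold of 0.05. Standard errors were derived from the F statistic, and 95% intervals from its degrees of freedom (2 residual, 8.1 prior). The biological coefficient of variation was 0.157. The procedure was tested on simulated data, where 0.0606% of unchanged genes were called. CPM used TMM-scaled library sizes. Alternatives were other scalings, DESeq2 1.42.0, no filter, blocks by replicate number, fits without mitochondrial-genome genes and fits without each library.

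Members and lists were chosen with earlier results of these data known. Members named with values are the 5 highest and 5 lowest by fold change, the 3 with the highest mean CPM in each subunit and those fixed by role; others are marked as chosen after their values were seen. RefSeq sequences and neighbours are of GRCr8 and were joined by symbol.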

Additional observations from a re-analysis of the deposited data

How the results depend on the processing

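The median log2 fold change of the 73 members stayed between -0.026 and 0.117, and the number whose 95% interval stayed within 2-fold between 52 and 70, over all alternatives that gave them. Counts of calls moved more. Members called higher numbered 1 with DESeq2 (Mrps27) and 1 with no filter (Mrpl17). Members called lower numbered 1 with DESeq2 and 1 with library sizes alone (both Mrpl52), and 3 with no filter (Mrpl36, Mrpl42, Mrpl52). With the replicate block, 1 was called lower (Mrpl36, log2 fold change -1.57, edgeR adjusted p = 0.046) and 0 higher. All-gene calls were 2558 of 15056 genes with DESeq2 and 3189 of 20666 with no filter. They were 2499 with library sizes alone and 1964 with the replicate block, each of 15257 genes. Same-numbered libraries tended only weakly to deviate in opposite directions (correlation -0.229 over genes), and nothing in the labels pairs them. A crossed pairing, chosen after seeing the data, called 8 of the 73 members higher and 5 lower. Of all 15257 genes it called 4677, against 2393 (15.7%) in the main fit. Without 1 library at a time, between 0 and 9 members were called higher, between 0 and 9 lower, and between 1205 and 4755 of all genes.

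Some values changed sign. Mrpl12 had -0.0026 with library sizes alone. Gars had -0.04 with library sizes alone, -0.03 with upper-quartile factors and -0.007 without mitochondrial-genome genes. Over the fits without 1 library, log2 fold changes ran between -0.09 and 0.04 for Mrpl44, -0.11 and 0.59 for Mrps22, -0.09 and 0.07 for Mrps2, -0.05 and 0.16 for Mrpl12, -1.68 and 0.28 for Mrpl42, -0.75 and 0.15 for Mrps18c, -0.11 and 0.03 for Iars2, -0.36 and 0.14 for Dhx30, -0.06 and 0.08 for Gars, and -0.04 and 0.30 for Polg. Whether depth or the 2 libraries a group limited the calls was not tested. Mrpl1 and Mrpl36 had few reads.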
